A study of Drosophila melanogaster with 12 samples.

Results

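The 9 libraries of Kc167 (Kc) cells treated with double-stranded RNA (dsRNA) against an acetyltransferase gene were taken as a single group and compared with the 3 control libraries, to find genes that lay on the same side of the controls whichever acetyltransferase was targeted. These libraries are 9 of the 12 in the series. Of 23882 annotated features, 10368 had enough counts to be tested, and 5166 of these (49.8%) had a fold change of the same direction in all 3 dsRNA groups. A stricter set held the 132 features (1.27%) whose value in each of the 9 libraries lay outside the range of the 3 controls on the same side. Both sets were chosen by their values against the controls, so that the values of their members are descriptions. The 3 fold changes share the same controls, so that their directions agree in part without any effect. Some features are also separated from 3 controls by chance alone. The shares to be met without an effect were not computed, so that neither count shows that genes moved together.

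Kc cells are a line derived from Drosophila melanogaster embryos, with features of hemocytes, the blood cells of the fly. Cells were transfected with dsRNA for 5 days before bulk RNA-seq of polyadenylated RNA. The control dsRNA was directed against yellow, a pigmentation gene listed as y, and the 3 other groups carry the labels gcn5, elp3 and nej, each with 3 replicates. All 12 libraries thus came from cells that had received a dsRNA, and no library of untreated cells was among them. It is not given whether replicates came from separate cultures, so that the spread between them may in part be technical. Among these dsRNAs, the study's RNA-seq methods name yellow and dGcn5, while Elp3 and nej are given by the labels alone.

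Gcn5 is the catalytic subunit of the SAGA and ATAC complexes, which acetylate lysines of histone H3 at promoters. Elp3 is the catalytic subunit of Elongator, which is best known for modifying tRNAs at the wobble position and has also been described as a histone acetyltransferase. Nejire, encoded by nej, is the fly CBP, an acetyltransferase of H3K27 at enhancers and a coactivator of many transcription factors. In RNA interference, Dicer cuts long dsRNA into short duplexes that guide Argonaute to mRNA of the same sequence.

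The gene-specific parts of the primers used to make the dsRNAs are shown here because they define which transcripts the treatments addressed. They are given 5′ to 3′ from the study's primer list, without the promoter tail that all of them carry, and none was used here for the nej dsRNA. The genes lie on chromosomes X (y), 3L (Gcn5) and 2L (Elp3).
yellow forward: aaaaactaagccaacgtcatc
yellow reverse: ccgtggatataggcaaaaa
dGcn5 forward: atgaaatcggtgtccgagtc
dGcn5 reverse: ccagtttatgcgggctacat
Elp3 forward: tggtacaagggccaaaatct
Elp3 reverse: acagcagcgccaatgtg

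The targets were examined first, in CPM, counts scaled to a common library size with TMM normalization. Gcn5 measured 138 ± 11.1 CPM (SD, n = 3) in the controls and ranged from 28.7 to 142 CPM in the 9 libraries, with a median of 83.0 CPM. The 3 dGcn5 libraries held the lowest values, between 28.7 and 48.5 CPM. The libraries labelled nej (83.0, 113 and 122 CPM) also lay below the lowest control value of 128 CPM. So did replicates 1 and 2 labelled Elp3 (82.5 and 97.7 CPM), while replicate 3 labelled Elp3 measured 142 CPM. The means of the 9 and the 3 libraries differed in an exact two-sided permutation test (p = 0.0455, smallest possible p = 0.00455). In edgeR's quasi-likelihood test over all features, the pooled log2 fold change of Gcn5 was -0.70 (95% interval -1.52 to 0.11, adjusted p = 1). Elp3 and nej went against their labels, since Elp3 measured 1899.8 to 4126 CPM in the libraries labelled Elp3 and 45.9 to 58.8 CPM in the controls, and nej measured 309, 3245 and 698 CPM in the libraries labelled nej and 46.8 to 205 CPM in the controls. Both groups are therefore referred to by their labels. Over the pooled 9 libraries, the differences of Elp3 and nej from the controls gave p = 0.495 and p = 0.55 in the same exact test. The control target y gave p = 0.855, with 10.99, 14.4 and 44.0 CPM in the controls and a median of 22.98 CPM (8.47 to 43.2 CPM) in the 9 libraries (exact permutation test).

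**Figure D1:**
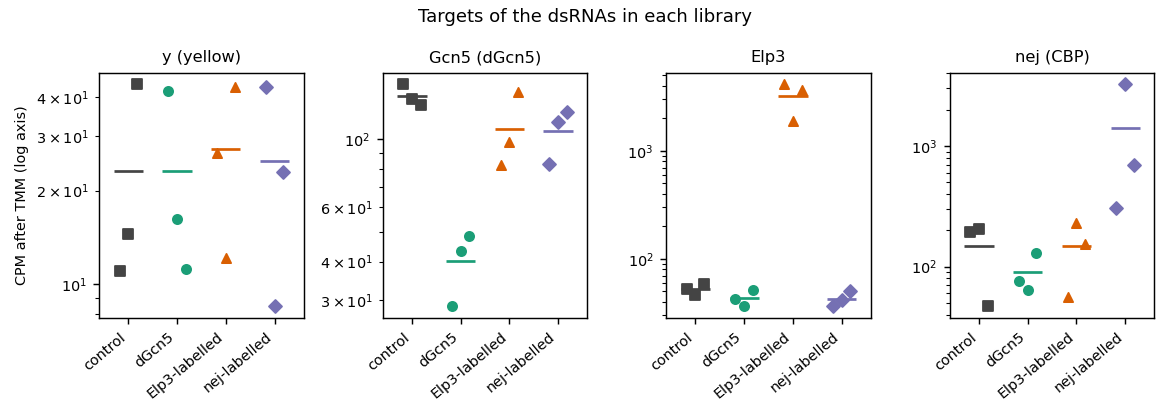
CPM after TMM normalization (log axis) of the 4 dsRNA targets in each of the 12 libraries, with horizontal lines at group means (n = 3 libraries each). Gcn5 is lowest in the dGcn5 libraries, at 28.7 to 48.5 CPM, whereas Elp3 and nej are highest in the libraries that carry their labels.

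The libraries held 19102102 to 22238424 counts in the pooled group and 22217755 to 23198850 in the controls. Replicates differed by far more than counting noise, and part of the spread followed exon length. The slope of log2 deviations on log2 exon length was -0.34 to 0.23 in the 9 libraries. It was 0.13, 0.15 and -0.33 in control replicates 1, 2 and 3, so that control replicate 3 stood apart from the other controls. Of 9 hemocyte markers fixed for Kc cells, all were detected, and their summed level was 2537 to 6240 CPM in the controls and 1086 to 5366 CPM in the 9 libraries. The male-specific RNAs roX1 and roX2 had at most 6 and 7 counts in any library, whereas msl-2, also listed as a male line marker, had up to 226. The fat body markers Lsp1alpha, Lsp2 and Fbp2 had at most 3, 7 and 0 counts. Of 25 markers of other cell types, however, 15 had enough counts to be tested. Among them were Mlc2 (muscle, up to 4030 counts), bam (germ line, up to 1976) and PPO3 (lamellocytes, up to 1129). The neuronal markers brp and elav had up to 649 and 384 counts.

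No gene passed the threshold when the 9 libraries were compared with the 3 controls. With edgeR's quasi-likelihood test and Benjamini-Hochberg adjustment over 10368 features, 0 were higher and 0 were lower at an adjusted p under 0.05. At an unadjusted p under 0.05 there were 229 higher features (2.21%) and 249 lower features (2.4%), 478 in all (4.61%), where chance alone gives 518. DESeq2, the tool the study used, called 2 higher and 5 lower features on the same libraries, and limma-voom with quality weights, which gave control replicate 3 a low weight, called 122 and 139. Expression varied between libraries of a group by a biological coefficient of variation of 42.4%. A typical 95% interval around a log2 fold change extended 0.69 in each direction (median over features).

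The gene nearest to the threshold was CG7497 (FBgn0036742) on the plus strand of chromosome 3L (BDGP6.32, 17633449 to 17638001). CG7497 measured 7.10, 4.53 and 1.94 CPM in the controls. It measured 0.289, 0.0461 and 0.494 CPM in the dGcn5 libraries, 0.481, 0.184 and 0.71 CPM in the libraries labelled Elp3, and 0.462, 0.193 and 0.237 CPM in those labelled nej. The groups did not overlap, and the 9 libraries held between 1 and 15 counts of this gene where the controls held 159, 103 and 44. Its pooled log2 fold change was -3.70 (95% interval -4.82 to -2.58), with an adjusted p of 0.0677 in edgeR's quasi-likelihood test over all features, while the next smallest adjusted p of that test was 0.769. The call on CG7497 depended on the test, with an adjusted p between 1.19e-06 (DESeq2) and 0.999 over 26 alternatives, 8 of which called it. Without control replicate 3 the adjusted p was 0.0491 and the log2 fold change -4.06. Over the 12 libraries, the features whose log2 CPM was most correlated with that of CG7497 among 10367 others were CG15740 (Pearson's r = 0.90), dpr17 (r = 0.88) and an insertion of the Doc3 element (r = 0.87). These points share libraries and groups, and the correlations are given as a description.

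All 9 libraries lay below the 3 controls for 70 features (0.675%) and above them for 62 features (0.598%). The 70 lower features comprised 67 named genes and 3 transposable element insertions, with a median exon length of 1661 bp. The 62 higher features comprised 46 named genes and 16 insertions, with a median exon length of 3061 bp, where the median of all features tested was 2077 bp. Whether the trend with length had a part in these sets was not tested gene by gene, but with the trend removed from each library 34 of the 62 and 35 of the 70 remained in their sets. Without control replicate 3 the sets held 270 higher and 352 lower features, but separation is easier to meet with fewer controls. How much of this growth is particular to control replicate 3 was not tested. Just inside the border were Ns1, whose highest dsRNA library measured 102.98 CPM and lowest control 103.05 CPM, and CG5285, with 8.51 and 8.54 CPM. Just outside it were Rpb5, with 64.1 and 64.0 CPM, and nop5, with 205.1 and 204.9 CPM. Of the lower set, 65 features would have passed the filter on low counts in the 9 libraries alone and 5, CG15740 and Npc2b among them, passed only through the controls, where they were high, whereas all 62 of the higher set passed in the 9 libraries.

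The 12 named genes with the smallest p-values in the lower set included NimB1 and slow. NimB1, a member of the Nimrod family of secreted and receptor proteins of hemocytes, measured 16.3, 7.0 and 13.2 CPM in the controls. In the 9 libraries its median was 0.924 CPM (0.138 to 4.31 CPM), and replicate 3 of each dsRNA group held the highest value of that group. The log2 fold change of NimB1 was -2.996 (95% interval -4.55 to -1.44) over the pooled libraries, and -3.44, -2.79 and -2.84 in the dGcn5 libraries and those labelled Elp3 and nej. Its exons share 77 bp with NimB2 on the other strand, and it is not stated whether the counting used the strand. Slow, an extracellular protein with EGF-like repeats that acts with thrombospondin at muscle attachment sites, is encoded by slow. It measured 36.5, 24.1 and 16.3 CPM in the controls and had a median of 5.46 CPM in the 9 libraries (0.58 to 9.95 CPM), with a log2 fold change of -2.14 (95% interval -3.20 to -1.07). The lowest value of slow was that of replicate 2 labelled nej, and the values of the other 8 libraries lay between 4.05 and 9.95 CPM.

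The lower set also included 3 enzymes and a lipid-binding protein. Adgf-A, a secreted adenosine deaminase, measured 433, 338 and 349 CPM in the controls and a median of 199 CPM in the 9 libraries (120.3 to 278 CPM), which is a log2 fold change of -0.84 (95% interval -1.29 to -0.39). Cyp6a2, a cytochrome P450 known for its part in insecticide resistance, had 29.4, 24.5 and 17.0 CPM in the controls and a median of 9.504 CPM in the 9 libraries (5.75 to 16.6 CPM). Here the highest dsRNA library came close to the lowest control. Npc2b, a sterol-binding protein of the NPC2 family, had 2.68, 1.10 and 2.21 CPM in the controls and a median of 0.378 CPM in the 9 libraries (0.0484 to 0.802 CPM), so that it passed the filter only through the controls. CG9733, which encodes a serine protease, had a median of 0.593 CPM (0.275 to 1.60 CPM) against 3.71, 2.77 and 2.96 CPM in the controls. The log2 fold changes of Cyp6a2, Npc2b and CG9733 were -1.28, -2.37 and -2.14.

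CG15347 was the only one of these genes that was called in a single group. It measured 352, 316 and 422 CPM in the controls, 151, 169 and 121 CPM in the dGcn5 libraries, 256, 155 and 154 CPM in the libraries labelled Elp3, and 57.5, 59.2 and 90.6 CPM in those labelled nej. All 9 values lay below the controls, and those labelled nej were the lowest. In the 4-group fit its log2 fold change was -2.39 (95% interval -3.02 to -1.77) in the libraries labelled nej, with an adjusted p of 0.0307 in edgeR's quasi-likelihood test, beside -1.31 in the dGcn5 libraries and -0.95 in those labelled Elp3. The difference among the 3 dsRNA groups did not pass the threshold for CG15347 in edgeR's test on the 9 libraries (unadjusted p = 0.00195, adjusted p = 1).

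The remaining genes among these 12 of the lower set were CG15740, CG33460, CG5321 and CG17760. CG15740, which also passed the filter only through the controls, had 42, 58 and 13 counts there and at most 11 in the 9 libraries, where replicate 3 labelled Elp3 held the 11 counts. CG33460 had 92, 108 and 42 counts in the controls and between 0 and 21 in the 9 libraries. CG5321 and CG17760 were measured at higher levels, with control means of 7.51 ± 1.41 and 55.9 ± 10.9 CPM (SD, n = 3) and means in the 9 libraries of 2.40 ± 1.11 and 33.8 ± 5.92 CPM (SD, n = 9). Their log2 fold changes were -1.64 (95% interval -2.47 to -0.81) and -0.73 (95% interval -1.11 to -0.34). Over all 12 genes, adjusted p-values of edgeR's test ran from 0.0677 to 0.769.

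**Figure D2:**
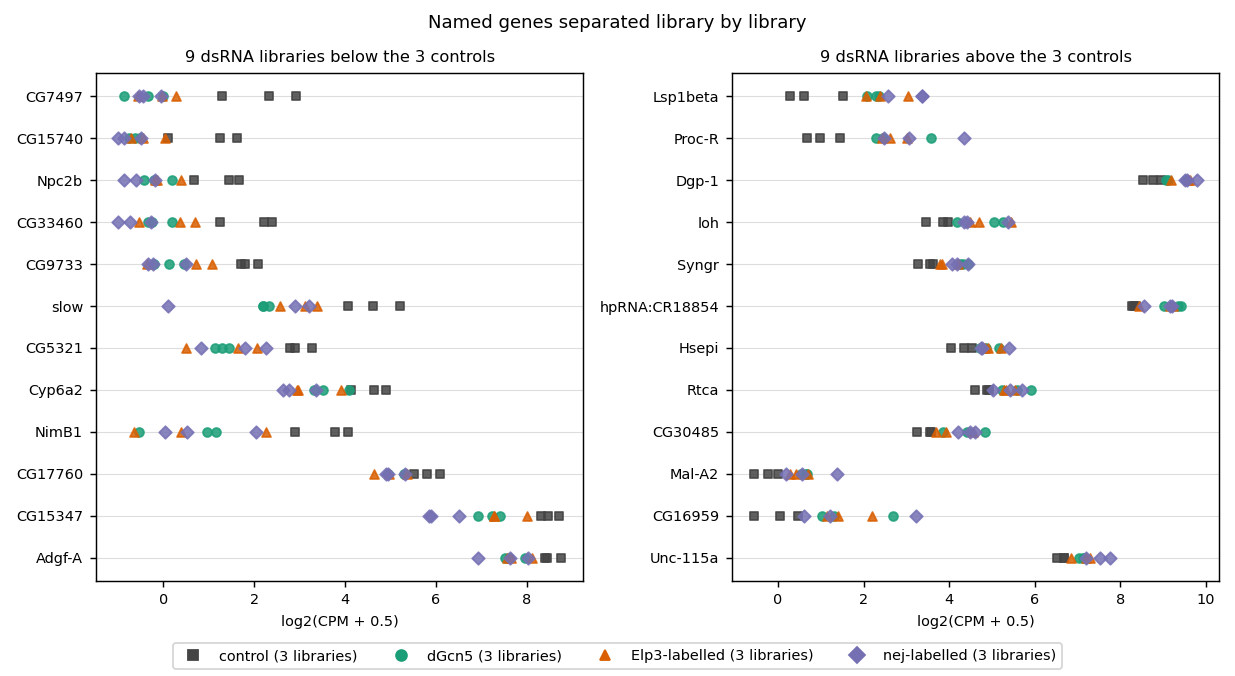
log2(CPM + 0.5) in each of the 12 libraries for the 12 named genes with the smallest p-values whose 9 acetyltransferase dsRNA libraries all lie below (left) or above (right) the 3 control libraries. Each point is a library, and control replicate 3 lies nearest to the dsRNA libraries for CG7497 (1.94 CPM), CG15740 and slow.

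Among the 12 named genes with the smallest p-values in the higher set was Lsp1beta. Lsp1beta, a storage protein of the larval fat body and hemolymph, measured 1.03, 0.704 and 2.38 CPM in the controls and a median of 4.73 CPM in the 9 libraries (3.64 to 9.82 CPM). Its log2 fold change was 2.12 (95% interval 1.07 to 3.17) over the pooled libraries, and 1.62, 1.96 and 2.60 in the dGcn5 libraries and those labelled Elp3 and nej. Lsp1alpha, Lsp2 and Fbp2, the fixed fat body markers, stayed at or near 0. Proc-R, the receptor of the neuropeptide proctolin, measured 1.47, 2.25 and 1.10 CPM in the controls and 4.40 to 19.9 CPM in the 9 libraries, with a median of 5.65 CPM. The highest value of Proc-R was that of replicate 1 labelled nej, and its log2 fold change was 2.31 (95% interval 1.16 to 3.45). Syngr, a synaptic vesicle protein, had control values of 9.20, 11.8 and 11.3 CPM and a median of 17.9 CPM in the 9 libraries (13.3 to 21.1 CPM). Loh, an ADAMTS-like protein of the extracellular matrix around the heart, had control values of 13.9, 15.2 and 10.6 CPM and a median of 25.5 CPM (17.7 to 42.8 CPM).

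The higher set also held a hairpin RNA and 3 enzymes. hpRNA:CR18854, a long hairpin RNA that is a source of endogenous siRNAs, was among the most abundant, with 331, 318 and 309 CPM in the controls and a median of 574 CPM in the 9 libraries (345 to 678 CPM). The controls lay close together, and replicate 3 labelled Elp3 and replicate 3 labelled nej (345 and 372 CPM) came nearest to them. Its log2 fold change was 0.77 (95% interval 0.30 to 1.23), but 1019 bp of its 2564 bp of exons overlap IP3K1 on the other strand, so that the source of its reads is uncertain where strand was not used. Rtca, the RNA 3′-terminal phosphate cyclase, had 23.8, 29.0 and 30.0 CPM in the controls and a median of 42.0 CPM (32.0 to 60.1 CPM), and 496 bp of its exons overlap CG4199 on the other strand. Hsepi, the heparan sulfate C5-epimerase, and Mal-A2, a maltase, had log2 fold changes of 0.67 and 1.61. Mal-A2 had no more than 11 counts in a control library.

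The remaining genes among the 12 of the higher set were Dgp-1, Unc-115a, CG30485 and CG16959. Dgp-1, which encodes a GTP-binding protein, measured 431, 368 and 489.8 CPM in the controls and a median of 740.5 CPM in the 9 libraries (539 to 888 CPM), with a log2 fold change of 0.71 (95% interval 0.30 to 1.12). Unc-115a, an actin-binding protein of growing axons, had a control mean of 98.9 ± 6.12 CPM (SD, n = 3) and a mean of 152 ± 29.6 CPM in the 9 libraries (SD, n = 9). CG30485 and CG16959 had log2 fold changes of 0.89 and 2.59. Over these 12 genes, adjusted p-values of edgeR's test ran from 0.769 to 0.938. The features with log2 CPM most correlated with Lsp1beta over the 12 libraries were cbs (r = 0.90), CG8301 (r = 0.90) and CG15435 (r = 0.88).

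The fold changes of the 3 groups were set side by side for these 24 genes. The 3 contrasts share the 3 control libraries, so that their likeness is in part built in, and all 24 were chosen for their direction. The 95% interval included 0 for Syngr and CG30485 in the libraries labelled Elp3 and for none of the 24 genes in the other groups. A measure independent of the controls is the comparison of the 3 dsRNA groups with each other. Over the 9 libraries, edgeR's quasi-likelihood test with 2 degrees of freedom found 1 feature among 10144 that differed between groups (0.00986%), which was Elp3 (adjusted p = 6.51e-05), and 267 (2.63%) at an unadjusted p under 0.05. The same test called neither Gcn5 (unadjusted p = 0.00147) nor nej (unadjusted p = 0.00106), although the group means of Gcn5 were 40.1, 107 and 106 CPM and those of nej 90.0, 147 and 1417 CPM (dGcn5, labelled Elp3, labelled nej). Few calls therefore do not show that the groups were alike. Against the controls, 0 features were called in the dGcn5 libraries, 1 was called higher in the libraries labelled Elp3, which was Elp3, and 1 was called lower in those labelled nej, which was CG15347 (each 0.00965% of the features tested). Gcn5 itself, with a log2 fold change of -1.78 in the dGcn5 libraries, was thus not called (adjusted p = 0.251, edgeR's quasi-likelihood test). At an unadjusted p under 0.05, 174 features were higher (1.68%) and 130 lower (1.25%) in the dGcn5 libraries, 255 (2.46%) and 153 (1.48%) in those labelled Elp3, and 211 (2.04%) and 243 (2.34%) in those labelled nej.

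**Figure D3:**
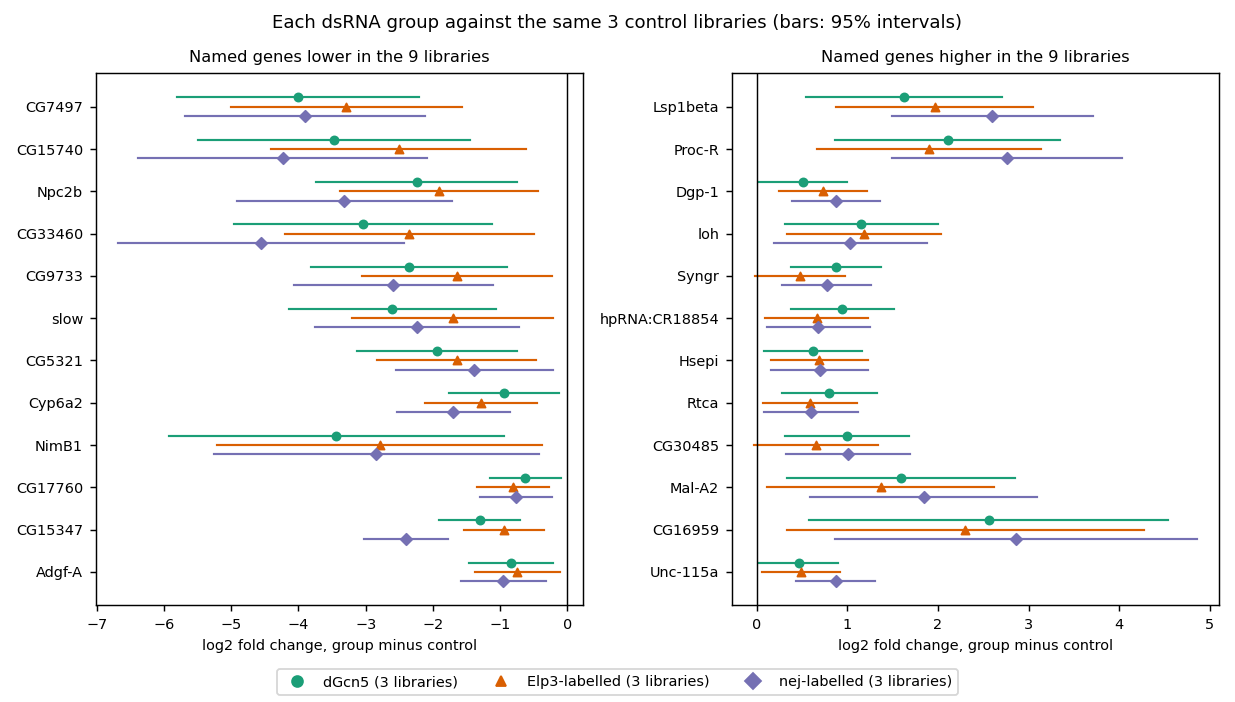
Log2 fold change of each dsRNA group against the same 3 control libraries for the 24 named genes, with 95% confidence intervals of the 4-group fit as bars. CG15347 stands furthest from 0 in the libraries labelled nej, at -2.39, beside -1.31 and -0.95 in the other groups.

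Antimicrobial peptide genes, which hemocytes and the fat body transcribe under Toll and Imd signalling, mostly lay below the controls. Of 17 genes in the list, 12 were tested, and 11 of them (91.7%) were lower than the controls in all 3 groups, beside 25.6% of all features. None was called in the pooled edgeR fit, and 8 had an unadjusted p under 0.05. All 12 would have passed the filter in the 9 libraries alone. The median log2 fold change of the list was -1.69, beside 0.01 over all features, and it was -1.14 in the dGcn5 libraries, -1.68 in those labelled Elp3 and -2.33 in those labelled nej. AttA, an attacin, measured 12.4, 8.19 and 27.8 CPM in the controls. In the dGcn5 libraries it measured 1.83, 3.55 and 11.5 CPM, in the libraries labelled Elp3 1.28, 1.29 and 7.14 CPM, and in those labelled nej 1.03, 0.774 and 7.27 CPM. Replicate 3 was the highest of each group, controls included, and only the third dGcn5 library reached the range of the controls. DptB, a diptericin, had 13.8, 8.67 and 48.8 CPM in the controls and a median of 3.51 CPM in the 9 libraries (1.28 to 20.4 CPM). CecC, a cecropin, had 2.46, 2.29 and 6.36 CPM in the controls and a median of 1.23 CPM (0.193 to 2.72 CPM), with a log2 fold change of -1.71 (95% interval -2.91 to -0.50). DptA was the exception, with a log2 fold change of 0.09 and at most 1.73 CPM in any library.

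The controls themselves differed in these genes. Control replicate 3 was the highest control for all 12 peptides, whose summed level was 75.2, 55.8 and 199 CPM in control replicates 1, 2 and 3 and 7.35 to 88.5 CPM in the 9 libraries, with a median of 27.7 CPM. Without control replicate 3, 11 of 12 were lower in all 3 groups, beside 25.4% of all features. Their median log2 fold change was then -0.83, with 0 at an unadjusted p under 0.05. Without replicate 3 of every group, 11 of 11 tested were lower in all 3 groups, with a median of -1.64 and 9 at an unadjusted p under 0.05, while 24.4% of all features were lower in all 3 groups. Of the genes of the Toll and Imd pathways, which control these peptides, 27 were tested. Of these, 11 were lower (40.7%, beside 25.6% of all features) and 6 higher in all 3 groups, none with an unadjusted p under 0.05. Their median log2 fold change was -0.11, and it was 0.016 without control replicate 3. Dredd, the caspase of the Imd pathway, had the smallest p-value and a log2 fold change of 0.43 (95% interval -0.01 to 0.87).

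Genes of hemocyte identity and function also mostly lay below the controls, with 15 of 20 tested (75.0%) lower in all 3 groups, beside 25.6% of all features, and 1 higher. Their median log2 fold change was -0.46, none was called in the pooled edgeR fit, and 5 had an unadjusted p under 0.05. Voom with quality weights, which called 139 lower features in all, called eater, Sr-CII, vkg and Col4a1 lower (adjusted p = 0.0364, 0.0411, 0.0285 and 0.034). The median was -0.77 without control replicate 3 and -0.84 without replicate 3 of every group. Eater, a phagocytic receptor of the Nimrod family, measured 271, 160.4 and 228 CPM in the controls. It measured 86.2, 56.0 and 192 CPM in the dGcn5 libraries, 37.8, 51.3 and 90.0 CPM in the libraries labelled Elp3 and 67.9, 22.1 and 113 CPM in those labelled nej. Only the third dGcn5 library reached the controls, and the log2 fold change of eater was -1.46 (95% interval -2.43 to -0.50). The basement membrane collagens vkg and Col4a1 had medians of 204 and 197 CPM in the 9 libraries and control means of 373 ± 151 and 501 ± 215 CPM (SD, n = 3), with log2 fold changes of -0.98 and -1.07. Hml, the clotting factor hemolectin, overlapped with the controls, with 402 to 3189 CPM in the 9 libraries and 3825, 3430 and 1121 CPM in the controls. In contrast to these genes, crq, the scavenger receptor for apoptotic cells, had a log2 fold change of 0.76 (95% interval -0.01 to 1.53). In bulk samples, fewer cells that express these genes and less RNA per cell cannot be told apart.

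Most tested members of the glycolysis list were higher in all 3 groups, though not in every library. Of 15 tested, 10 (66.7%) were higher in all 3 groups and 0 were lower in all, beside 24.2% higher among all features, and 3 had an unadjusted p under 0.05. The list also holds Gfat1 and Gfat2, which belong to the hexosamine branch and not to glycolysis itself. Both were among the 3 members with an unadjusted p under 0.05, beside PyK. The median log2 fold change of the list was 0.32. Its summed level was 6740, 7632 and 8106 CPM in the controls and 5011 to 13388 CPM in the 9 libraries, with a median of 9839 CPM. Replicate 3 of dGcn5 (5011 CPM), labelled Elp3 (6807 CPM) and labelled nej (7828 CPM) did not exceed the highest control. Nor did replicate 2 labelled nej (7627 CPM), whereas the other dsRNA libraries did. PyK, the pyruvate kinase, measured 705, 671 and 885 CPM in the controls and a median of 1041 CPM in the 9 libraries (693 to 1264 CPM), of which 8 lay above the highest control. Pgi, the phosphoglucose isomerase, had a control mean of 241 ± 12.5 CPM (SD, n = 3) and a median of 403 CPM in the 9 libraries (178 to 509.8 CPM). Gfat1, which diverts fructose 6-phosphate to hexosamines, had 0.357, 0.352 and 0.574 CPM in the controls. It measured 1.88 to 2.27 CPM in the dGcn5 libraries and 0.643 to 2.14 CPM in those labelled Elp3, while those labelled nej measured 0.770, 0.339 and 0.570 CPM, of which the first lay above the controls, the second below them and the third within their range. Ldh, the lactate dehydrogenase, overlapped between the groups, with a range from 235 to 2990 CPM in the 9 libraries and from 781 to 1412 CPM in the controls. Leaving out replicate 1 labelled nej reduced the number of glycolysis genes higher in all 3 groups to 6 (40%), beside 20.2% of all features. Leaving out control replicate 3 raised it to 13 (86.7%), while the share of all features rose to 35%.

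**Figure D4:**
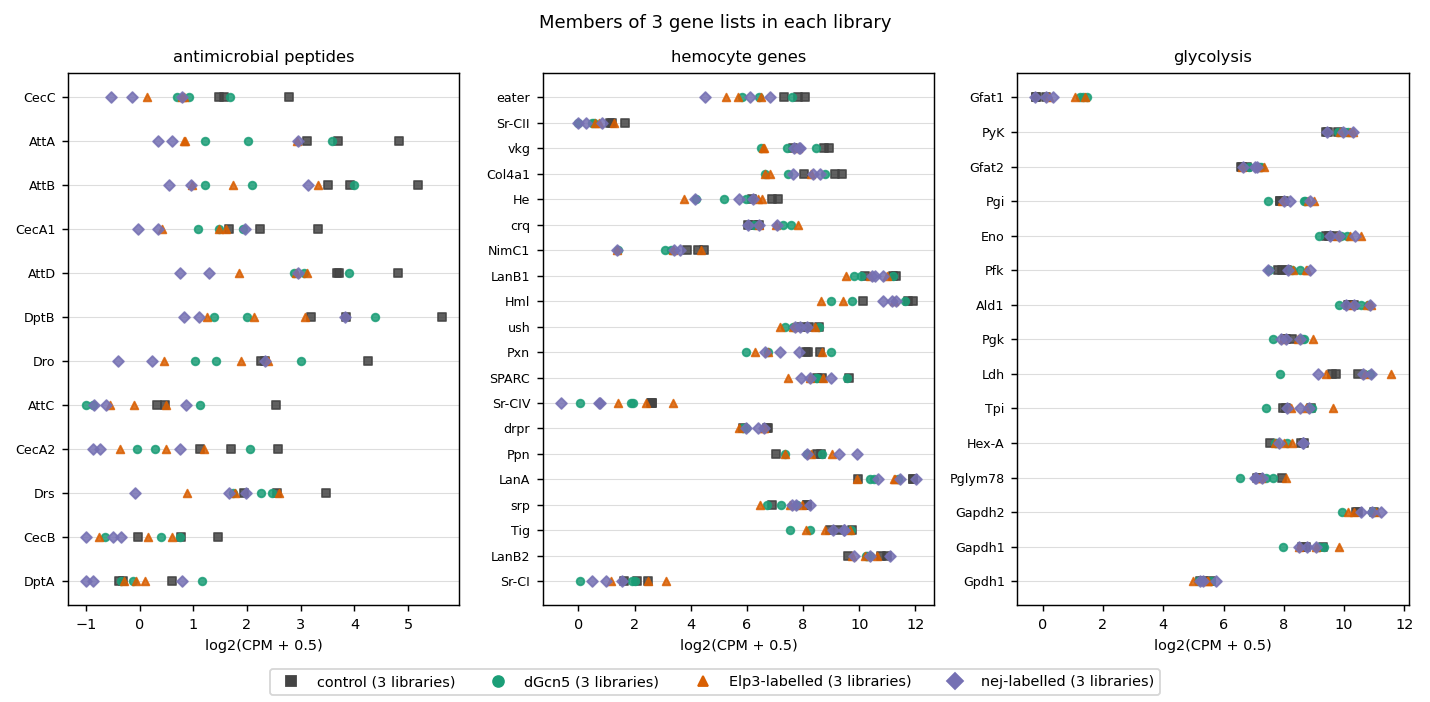
log2(CPM + 0.5) in each of the 12 libraries for the tested antimicrobial peptide (12), hemocyte (20) and glycolysis (15) genes, ordered by the p-value of the pooled comparison. Control libraries lie to the right of most dsRNA libraries for the peptides, with control replicate 3 the highest of the controls for all 12.

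Transposable element insertions were counted as features of their own, and 1089 of 5571 were tested. Of these, 341 (31.3%) were higher in all 3 groups, beside 24.2% of all features, and 170 were lower, none was called, and their median log2 fold change was 0.15. Together they took 1.70 to 3.08% of counts in the controls and 1.60 to 3.64% in the 9 libraries. The median was 0.24, 0.29 and 0.04 without control replicate 1, 2 or 3 and 0.05 without replicate 2 labelled nej, and without control replicate 3 the share of higher insertions (29%) was below that of all features (35%). Without replicate 3 of every group, 244 of 1097 (22.2%) were higher in all 3 groups, beside 27.7% of all features, with a median log2 fold change of -0.01. The families named here were chosen after their values were seen. Invader4, an LTR retrotransposon, had 9 tested insertions, of which 7 were higher in all 3 groups and 3 lay above the controls in all 9 libraries. Summed over the family, invader4 measured 299, 273 and 348 CPM in the controls, 758, 1046 and 543 CPM in the dGcn5 libraries, 742, 1156 and 395 CPM in the libraries labelled Elp3 and 548, 646 and 361 CPM in those labelled nej. The 2 groups of libraries did not overlap, and replicate 3 of each dsRNA group was nearest to the controls. The insertion with the most counts lies on chromosome 2L (BDGP6.32, 21653247 to 21656493) and had a log2 fold change of 1.25 (95% interval 0.50 to 2.002). The single tested insertion of accord measured 304, 227 and 303 CPM in the controls and 326 to 1042 CPM in the 9 libraries. Insertions of roo were the most numerous, with 76 of 115 higher in all 3 groups, but their summed level ranged from 120 to 405 CPM in the 9 libraries and from 142 to 189.6 CPM in the controls. Copies of a family are nearly identical and the treatment of reads with several matches is not stated, so that values of single insertions are uncertain.

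Genes on chromosome 4, most of which is heterochromatic, were lower in all 3 groups for 35 of 84 tested (41.7%), beside 25.6% of all features, and higher for 9, with a median log2 fold change of -0.15 and none called. This pattern depended on the controls. Without control replicate 1, 21 of 86 (24.4%) were lower, beside 28.5% of all features, with a median of 0.03, and without control replicate 2 the median was 0.0083. Without control replicate 3, 51 of 85 (60%) were lower, beside 25.4% of all features, with a median of -0.30. RpS3A, a ribosomal protein gene on this chromosome, was an exception, with 1130, 1038 and 1646 CPM in the controls and a median of 1982 CPM in the 9 libraries (1552 to 2961 CPM), a log2 fold change of 0.73 (95% interval 0.18 to 1.28). Of the ribosomal protein genes as a whole, 7 of 86 tested were higher (8.14%) and 6 lower (6.98%) in all 3 groups, with a median of 0.05. Among all features, 24.2% were higher and 25.6% lower. Oxidative phosphorylation genes (4 of 61 higher, 11 lower) and proteasome genes (0 of 35 higher, 2 lower) also rarely had the same direction in all 3 groups. The list medians of these 3 sets had opposite signs in the dGcn5 libraries (0.21, 0.14 and 0.19) and in the libraries labelled nej (-0.23, -0.31 and -0.15).

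Of 19 ecdysone response genes tested, 7 were higher (36.8%) and 3 lower (15.8%) in all 3 groups, beside 24.2% and 25.6% of all features. Eip55E, a cystathionine gamma-lyase induced by the molting hormone, was the only one whose 9 libraries lay below all controls. It measured 885, 751 and 957 CPM in the controls and a median of 395 CPM in the 9 libraries (179.7 to 599 CPM), with a log2 fold change of -0.998 (95% interval -1.66 to -0.34). ETHR, the receptor of ecdysis-triggering hormone, measured 2.05, 2.11 and 2.87 CPM in the controls and 6.29 to 22.8 CPM in the dGcn5 libraries and those labelled Elp3, with 5.24, 0.629 and 4.94 CPM in those labelled nej. Heat shock and chaperone genes had 7 of 21 higher (33.3%) and 1 lower (4.76%) in all 3 groups. Over the pooled libraries, however, 9 were higher and 12 lower, with a median log2 fold change of -0.17. The median was -0.37 in the dGcn5 libraries, -0.25 in those labelled Elp3 and 0.53 in those labelled nej. Of this list, Hsp23, a small heat shock protein, ranged from 358 to 2602 CPM in the 9 libraries and from 241 to 657 CPM in the controls (log2 fold change 1.44, 95% interval 0.10 to 2.77). In the unfolded protein and ATF4 response, 9 of 19 were higher (47.4%) and 5 lower (26.3%). Sil1, a nucleotide exchange factor of the endoplasmic reticulum chaperone BiP, had a log2 fold change of -0.50 (95% interval -0.96 to -0.04). Among 11 JAK/STAT and antiviral genes, 3 were higher (27.3%) and 4 lower (36.4%). The virus-induced gene vir-1 measured 409, 257 and 562 CPM in the controls and a median of 166 CPM in the 9 libraries (50.5 to 453 CPM).

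Partners of the targeted enzymes lay on both sides of the controls. Of 29 tested subunits of SAGA and ATAC, 7 were higher (24.1%) and 6 lower (20.7%) in all 3 groups, beside 24.2% and 25.6% of all features. The subunit with the smallest p-value, wds, had a log2 fold change of -0.32 (95% interval -0.64 to 0.01). Among 16 histone acetyltransferases and deacetylases, 3 were higher (18.75%) and 4 lower (25%), Gcn5 itself included among the lower. Of 17 genes of the RNA interference machinery, which processes the transfected dsRNA, 3 were higher and 3 lower (17.6% each). Hen1, the methyltransferase of siRNA ends, had a log2 fold change of -0.44 (95% interval -0.90 to 0.03). The 12 double-strand break repair genes listed by the study had 2 higher and 2 lower members (16.7% each), with log2 fold changes between -0.26 and 0.37, the latter in Brca2. Of its 7 cell cycle genes, 2 were higher (28.6%) and 1 was lower (14.3%), within -0.12 and 0.26. Both lists were taken from the study, which examined them in these cells. Of 15 tested markers of other cell types, 1 was higher and 1 lower in all 3 groups (6.67% each). Syt1, the calcium sensor of synaptic vesicles, had a log2 fold change of -1.14, which was 0.023 without control replicate 3. Genes on the X chromosome numbered 1616 tested, with 22.28% higher and 25.99% lower, near the shares of all features (24.2% and 25.6%). Of the genes named here by rule, 13 of 44 share exon bases with another feature.

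**Figure D5:**
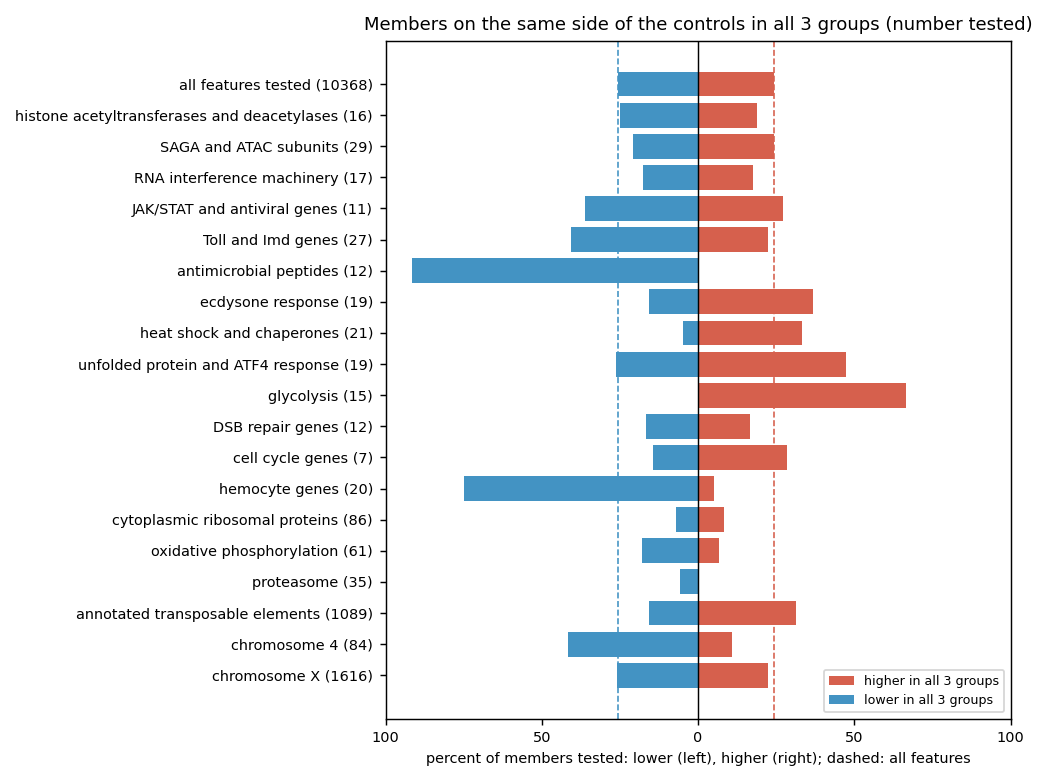
Percent of tested members (number in brackets) of each gene list that were higher (right) or lower (left) than the controls in all 3 dsRNA groups, with dashed lines at the values of all features (24.2% and 25.6%). Antimicrobial peptides (91.7%) and hemocyte genes (75.0%) reach furthest to the left and glycolysis (66.7%) furthest to the right.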

How the data were processed

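Per the labels, polyadenylated RNA of the 12 Kc167 samples was sequenced from stranded libraries. Per the study's methods, which name the yellow and dGcn5 samples, reads were trimmed, filtered for ribosomal RNA, aligned to BDGP6.32 with STAR and counted per gene with featureCounts and the Ensembl annotation. The authors deposited these whole-number counts without normalization, and use of strand, molecular identifiers and reads with several matches is not given in the sources used here. Samples were grouped by label, and 0 columns were left unused.

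Counts were analysed in R 4.3.3 with edgeR 4.0.16. Features were kept by filterByExpr over the 4 groups (minimum count 10), libraries scaled by TMM, and the 9 libraries compared with the 3 controls by the quasi-likelihood test, without the replicate number as a block. Fold changes are those of the fitted models at edgeR's default prior count. A prior count of 2 was used for the log2 CPM behind the length slopes and the replicate deviations. P-values are Benjamini-Hochberg adjusted over all features tested, with a threshold of 0.05. A 4-group fit gave each group's contrast, and a fit of the 9 libraries gave the test among groups. CPM values are TMM-scaled. The 4 dsRNA targets were also compared by exact permutation over 220 arrangements. Fits were tested on simulated data.

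Named genes are the 4 targets, the 12 named genes per direction with the smallest p-values among those separated from the controls, and the member of each list with the smallest p-value. Other list members were added after their values were seen. The members and lists were chosen with earlier results of these data known. Transposable element insertions were identified by their IDs. Alternatives included DESeq2 1.42.0, limma-voom (limma 3.58.1), other filters and size factors, a length correction, a replicate block, and each library or group left out. The recounts of 6 gene lists were chosen after seeing the data.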

Additional observations from a re-analysis of the deposited data

Results flagged for a closer look

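Dixon's ratio, the gap between an extreme library and its nearest neighbour divided by the range, was computed over the 9 dsRNA libraries for the 44 named genes, and 5 exceeded the critical value of 0.493. For values from a single normal population, chance gives about 1 such value in 20 groups. The 9 libraries come from 3 dsRNA groups and their CPM were not transformed, so that this rate need not hold here. For nej, replicate 2 labelled nej (3245 CPM, next 698 CPM) gave 0.799. For CG15740, replicate 3 labelled Elp3 (0.520 CPM, next 0.230 CPM) gave 0.559. For Proc-R, replicate 1 labelled nej (19.9 CPM, next 11.4 CPM) gave 0.547. For Mal-A2, replicate 3 labelled nej (2.09 CPM, next 1.12 CPM) gave 0.662. For CecC, the third dGcn5 library (2.72 CPM, next 1.38 CPM) gave 0.528.

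Elp3 differed among the 3 dsRNA groups (adjusted p = 6.51e-05 in edgeR's quasi-likelihood test), with 36.8 to 51.6 CPM in the dGcn5 libraries, 1899.8 to 4126 CPM in those labelled Elp3 and 36.3 to 50.1 CPM in those labelled nej.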

How the results depend on the processing

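The pooled comparison called 0 features in each direction, and other settings called 2 higher and 5 lower (DESeq2), 122 higher and 139 lower (voom with quality weights, which gave control replicates 1, 2 and 3 weights of 5.44, 3.13 and 0.253), 2 lower (newer quasi-likelihood fit), 1 lower (no filter) and 1 lower (replicate 3 of every group left out). It was not established that replicate numbers pair the samples, since the labels do not say so and deviations correlated above 0.1 in 13 of 18 same-numbered pairs, not in all, beside 12 of 36 others. The replicate block called 2 lower features, CG7497 and NimB1 (adjusted p = 0.0391 each, edgeR), and 5 with the length correction. Among those 5 were the antimicrobial peptides AttB and DptB (adjusted p = 0.0485 each, edgeR). The length correction put 113 features below all controls. With at least 10 counts in every library, 5 of 5 antimicrobial peptides were lower in all groups, beside 26.5% of all features. Under that filter, 164 of 547 transposable element insertions (30%) were higher in all groups, beside 22.9% of all features.

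Leaving out each library in turn gave 0 to 0 higher and 0 to 1 lower calls, 62 to 270 features above and 78 to 352 below all controls, both highest without control replicate 3, and 2151 to 3704 higher and 2337 to 3209 lower features with the same direction in all groups. Separation from all controls is easier to meet with a library fewer, so that its counts can grow for that reason. Counts of list members higher in all 3 groups were 271 to 443 for transposable elements and 6 to 13 for glycolysis. Counts of members lower in all 3 groups were 11 to 13 for antimicrobial peptides and 21 to 51 for chromosome 4. They were 12 to 16 for hemocyte genes and 9 to 13 for Toll and Imd genes. In the test among the dsRNA groups, 1 to 1 features differed. The log2 fold change of nej was -0.0093 with voom and -0.32 without the libraries labelled nej, and that of Elp3 was -0.28 without those labelled Elp3. That of y ranged from -0.22 to 0.98 and that of Syt1 from -1.63 to 0.023 as libraries were left out. Y was below 0 without control replicate 1 (-0.22), control replicate 2 (-0.13), replicate 1 of dGcn5 (-0.02), replicate 3 labelled Elp3 (-0.02) or replicate 1 labelled nej (-0.02), and Syt1 was above 0 without control replicate 3 (0.023). Of the other fold changes of named genes, 1124 kept their direction and side of the threshold and 43 passed it. The cause of these shifts was not tested. Genes under about 10 counts, such as CG15740, are limited by depth.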

Other observations

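Other genes separated from the controls, chosen here after their values were seen, included members of the nucleolus. Nop60B, the pseudouridine synthase of H/ACA particles, measured 334, 334 and 371 CPM in the controls and a median of 249 CPM in the 9 dsRNA libraries (191 to 306 CPM), a log2 fold change of -0.46 (95% interval -0.83 to -0.10). NHP2, another H/ACA protein, measured 104.6, 108.7 and 176.6 CPM in the controls and 42.3 to 97.0 CPM in the 9 libraries. The nucleostemin-like GTPases Ns1 and Ns3 had log2 fold changes of -0.29 and -0.35. Each of these 4 genes had an adjusted p of 0.997 in edgeR's quasi-likelihood test, and no list of nucleolar genes was tested.

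Gnmt, the glycine N-methyltransferase that consumes S-adenosylmethionine, measured 191, 137 and 177 CPM in the controls and 28.1 to 123 CPM in the 9 libraries (log2 fold change -1.09, adjusted p = 0.918 in the same test). NimA, another Nimrod receptor, had a control range of 2.29 to 7.24 CPM and a median of 0.428 CPM in the 9 libraries. AOX1, an aldehyde oxidase, measured 500.4, 408 and 474 CPM in the controls and 567.9 to 1427 CPM in the 9 libraries.

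Summed over 5 tested insertions, the LTR element GATE measured 54.9, 59.8 and 58.1 CPM in the controls and a median of 93.8 CPM in the 9 libraries (60.5 to 122 CPM), without overlap. In contrast, 10 of 14 tested insertions of mdg3 were lower in all 3 groups, with a summed level of 1669 to 3001 CPM in the controls and 1173 to 3076 CPM in the 9 libraries.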
